A study of Mus musculus with 6 samples.

Results

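Serpina3g, Serpina3n, Serpinb2, Serpine2, Serpinf1, Serpinh1 and Slpi encode serine protease inhibitors and their relatives, and their transcripts were followed in mouse dermal fibroblasts treated with interleukin-1 (IL-1). The 7 genes were chosen with earlier results of these data known. They were taken by name, with every non-control probe that carries one of these names in the scanner files. They are 7 of 28100 gene names and have 10 of the 41174 non-control probes. The cells were cultured skin fibroblasts of C57BL/6 mice, grown in DMEM with fetal bovine serum and antibiotics, as were the untreated cells. Treated cells received IL-1 at 20 ng/ml for 1, 2 or 4 h, and untreated cells (0 h) were the control. Each of the 6 Agilent 2-colour arrays held treated RNA of 1 time point and untreated RNA. Every time point was hybridised on 2 arrays, the first with treated RNA in Cy5 and the second with treated RNA in Cy3. The labels do not give the form of IL-1, the passage, or how many mice or cultures were used.

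Serpins are proteins that trap a target protease: the protease cuts an exposed loop of the serpin, and the complex then changes shape and stays locked. Serpina3g and Serpina3n belong to a cluster of mouse genes related to human alpha-1-antichymotrypsin, and Serpinb2 (plasminogen activator inhibitor 2) and Serpine2 (protease nexin-1) act on plasminogen activators and thrombin-like proteases. Serpinf1 (pigment epithelium-derived factor) and Serpinh1 (Hsp47, a collagen chaperone of the endoplasmic reticulum) have the serpin fold but do not inhibit proteases. Slpi, the secretory leukocyte protease inhibitor, is not a serpin: it is a small secreted protein with whey acidic protein domains that blocks neutrophil elastase and cathepsin G. In skin, such inhibitors limit the breakdown of matrix during inflammation and wound healing.

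The promoters of the 3 genes with a rising response are shown here because their ratios climbed together. Each run holds the 250 bases before a transcript start in the RefSeq annotation of GRCm38.p6, read 5′ to 3′ on the gene's strand. The window of Serpina3g is chr12:104235897-104236146 on the plus strand, that of Serpinb2 is chr1:107511173-107511422 on the plus strand, and that of Slpi is chr2:164356508-164356757 on the minus strand. Capitals mark matches on either strand to the NF-kB consensus, to the AP-1 motif TGANTCA or to the C/EBP motif TTNNGNAA.
Serpina3g: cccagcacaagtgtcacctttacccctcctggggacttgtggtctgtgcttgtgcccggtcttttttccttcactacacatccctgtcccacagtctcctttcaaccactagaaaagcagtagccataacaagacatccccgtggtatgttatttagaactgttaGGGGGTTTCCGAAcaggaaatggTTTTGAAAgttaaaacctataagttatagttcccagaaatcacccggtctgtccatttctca
Serpinb2: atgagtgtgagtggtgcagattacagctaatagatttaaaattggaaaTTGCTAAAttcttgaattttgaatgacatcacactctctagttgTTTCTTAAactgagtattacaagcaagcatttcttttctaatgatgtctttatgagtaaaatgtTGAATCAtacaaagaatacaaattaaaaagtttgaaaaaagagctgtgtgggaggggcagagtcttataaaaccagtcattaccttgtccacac
Slpi: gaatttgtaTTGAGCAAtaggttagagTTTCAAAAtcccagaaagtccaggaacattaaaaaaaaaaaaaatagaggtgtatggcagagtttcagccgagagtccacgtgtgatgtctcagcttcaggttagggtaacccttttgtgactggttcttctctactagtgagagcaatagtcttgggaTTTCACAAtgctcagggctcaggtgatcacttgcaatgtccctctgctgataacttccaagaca

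All 7 genes had a window, and Serpinb2 had a second one for a start further downstream, which gives 8 windows. Both Serpinb2 windows lie inside the RefSeq gene, which begins at 107500892, so neither covers the bases before that outermost start. In the Serpina3g window an NF-kB match, GGGGGTTTCC, begins 85 bases before the start and overlaps a C/EBP match that begins 80 bases before it. A second C/EBP match begins 62 bases before the start. The Serpinb2 window has the AP-1 match TGAATCA at 94 bases and C/EBP matches at 202 and 158 bases before the start. The Slpi window has C/EBP matches at 241, 223 and 64 bases before the start and no match to the other motifs. Over all 32851 windows of this length, 3.899% held the NF-kB consensus, 6.749% AP-1 and 36.85% C/EBP, so a C/EBP match is common. Serpinh1 also held an NF-kB match, 110 bases before its start, and Serpina3n held 2 C/EBP matches. An interferon-stimulated response element, held by 2.977% of all windows, matched in none of the 8. A match shows only that these letters are present.

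Ratios are given on the log2 scale, treated over untreated, after background correction and loess normalisation. A dye-swapped pair of arrays counts as 1 sample. The ± beside a ratio at 1 time is the distance of either array from the pair's average, a technical error; over all tested probes its median was 0.062 and its 95th percentile 0.197. The mean response is the average of the 3 times, and the slope is the change in log2 ratio for each doubling of time, each with its SE over 3 times. A change with time widens the SE of the mean response. A probe was tested if its signal was well above background on all arrays of at least 1 condition. For treated RNA these were both arrays of a time, and for untreated RNA all 6 arrays. This held for 30580 probes with complete values. The median signal of an array ranged between 124.3 and 137.7 scanner units in Cy5 and between 121.8 and 127.5 in Cy3. Many spots therefore lie near the negative controls, whose medians ranged between 68.4 and 74.1 in Cy5 and between 96.3 and 104.4 in Cy3. The chemokine gene Cxcl1 (mean response 5.51) and Nfkbia, which encodes the NF-kB inhibitor (2.51), were higher in treated cells at every time. All 9 fibroblast markers were measured. Of them Dcn was higher (mean response 0.46, adjusted p = 0.0297) and also rose with time (slope 0.33, adjusted p = 0.00893), and Col3a1 was lower (mean response -0.25, adjusted p = 0.00245).

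Of the 10 probes, 8 probes of 6 genes were measured well enough to test. The ratios of 3 genes rose with time by the slope test: Serpina3g, Serpinb2 and Slpi. Of these only Serpina3g passed the rule of a 2-fold difference on both arrays. In the mean response 5 of the 8 probes were higher, against 10.5% of all tested probes, and 1 was lower, against 11.4% of all. In the slope, 4 probes of the 3 genes rose, against 0.196% of all, and 0 fell, against 0.242% of all (limma, adjusted p under 0.05). Both Serpinb2 probes, which overlap in their target, are among those that rose. The genes were chosen with earlier results of these data known, so the shares beside all probes are a description and no test. The median log2 ratio of the 8 probes was 0.12, 0.32 and 0.57 at 1, 2 and 4 h, while the median of all tested probes lay between 0.0008 and 0.0023. The array cannot tell a change in RNA per cell from a change in the share of cells that hold the RNA.

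**Figure D1:**
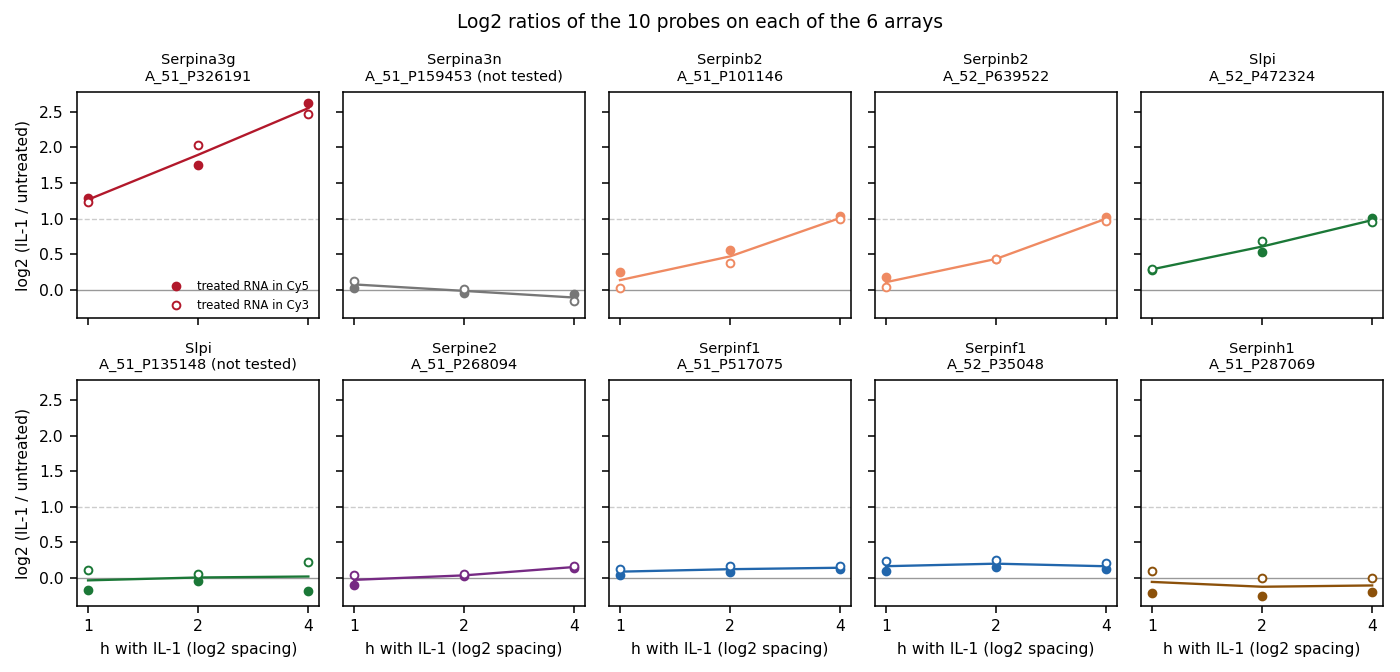
The log2 ratio of IL-1-treated over untreated RNA (y axis) against h with IL-1 (x axis, spaced by log2) is drawn for the 10 probes, 1 panel each, with filled points for arrays with treated RNA in Cy5, open points for treated RNA in Cy3, a line through the averages and a dashed line at a 2-fold difference. Serpina3g lies above the dashed line on all 6 arrays, both Serpinb2 probes and 1 Slpi probe climb to about that line at 4 h, and the other panels stay close to 0.

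Serpina3g, an intracellular serpin known in mouse haematopoietic cells and in activated T cells, had the strongest response of the group. The gene lies on chromosome 12 from 104236147 to 104241939 in GRCm38.p6. Its probe A_51_P326191 gave mean signals of 687, 815 and 1929 units at 1, 2 and 4 h for treated RNA in Cy5, against 184, 173 and 202 units for untreated RNA in Cy3 on the same arrays. With the dyes exchanged it gave 282, 474 and 630 units for treated RNA in Cy3, against 226, 243 and 237 units for untreated RNA in Cy5. The treated signal climbed with time in both dyes, while the untreated signal moved little, and all 12 readings were well above background.

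At 1 h the log2 ratios of Serpina3g on the 2 arrays were 1.29 and 1.24. They reached 1.76 and 2.04 at 2 h, then 2.63 and 2.47 after 4 h. The ranges of the 3 times do not overlap. These values correspond to 2.40-fold, 3.72-fold and 5.87-fold higher signals in treated cells. The mean response was 1.90 ± 0.21 (adjusted p = 0.00283) and the slope 0.64 ± 0.028 per doubling of time (adjusted p = 0.00083). The ratio at 4 h was 2.44 times that at 1 h. The mean call was lost under a trended robust variance (adjusted p = 0.0915). With this processing no tested probe had a larger upward slope. Serpina3g passed the rule of a 2-fold difference on both arrays at each time, as did 0.17%, 0.134% and 0.111% of all tested probes at 1, 2 and 4 h, and no other probe of the 7 genes did so.

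Serpina3g has close paralogs in its cluster, and whether the probe also binds their transcripts was not tested. The 4 measured paralogs Serpina3b, Serpina3c, Serpina3k and Serpina3m had mean responses between -0.0049 and 0.059, and 0 of the 4 passed the mean test. Serpina3c and Serpina3k were dim, with average log2 intensities over both dyes of 6.17 and 6.20. For such dim probes a ratio near 0 does not show whether the gene responded. Serpina3f, Serpina3i and Serpina3j, close to Serpina3g on the chromosome, were not found on the array under these names. Serpina3n, an extracellular inhibitor released in acute inflammation, has its gene on the same chromosome from 104406646 to 104414334. Its probe A_51_P159453 was well above background in 0 of 12 readings. In Cy5 it gave 73.9 to 85.1 units for treated RNA and 79.6 to 86.4 units for untreated RNA. In Cy3 it gave 96.8 to 111 units for treated RNA and 98.8 to 107 units for untreated RNA. These ranges overlap each other and the negative controls, so no fold is given for Serpina3n.

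Serpinb2 limits urokinase and tissue plasminogen activator and is also abundant inside activated macrophages and keratinocytes. The gene lies on chromosome 1 from 107500892 to 107525600. Its probe A_51_P101146 gave 288, 329 and 577 units at 1, 2 and 4 h for treated RNA in Cy5, against 175, 170 and 192 units for untreated RNA in Cy3. With the dyes exchanged it gave 165, 207 and 270 units for treated RNA in Cy3, against 240, 259 and 238 units for untreated RNA in Cy5. The untreated RNA read brighter in Cy5 than in Cy3, so only the normalised ratios compare treated with untreated RNA.

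At 1 h those ratios were 0.24 and 0.026, at 2 h they were 0.56 and 0.38, and after 4 h they reached 1.03 and 0.99. They were positive on all 6 arrays, and the 3 times do not overlap. Serpinb2 was thus 1.10-fold, 1.38-fold and 2.01-fold higher in treated cells. The mean response was 0.54 ± 0.15 (adjusted p = 0.0444) and the slope 0.44 ± 0.036 (adjusted p = 0.00726). The second probe, A_52_P639522, gave log2 ratios of 0.18 and 0.031 for 1 h, 0.43 and 0.43 for 2 h, then 1.03 and 0.97 for 4 h. Its slope was 0.45 ± 0.038 (adjusted p = 0.00893), while its mean response of 0.51 ± 0.15 missed the threshold (adjusted p = 0.055). The 2 probes share 20 bases of their target, so they are not independent measurements. At 1 h the first probe's average of 0.13 ± 0.11 was close to its array error. Its mean call was lost without the 2 h sample (adjusted p = 0.14) and without the arrays with treated RNA in Cy5 (adjusted p = 0.0579). It was also lost with processed signals (adjusted p = 0.133), an offset of 16 (0.0816), a trended robust variance (0.295) and the brightest probe per gene (0.0558). Without the arrays with treated RNA in Cy3 the slopes of both probes missed the threshold (adjusted p = 0.066 and 0.109), and the first probe's slope also did so with 6 unaveraged arrays and no block (adjusted p = 0.0577).

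Slpi, which protects tissue from neutrophil proteases, lies on chromosome 2 from 164354070 to 164356507. Its probe A_52_P472324 gave 324, 267 and 471 units at 1, 2 and 4 h for treated RNA in Cy5, against 184, 150 and 168 units for untreated RNA in Cy3. With the dyes exchanged it gave 170, 222 and 226 units for treated RNA in Cy3, against 206, 231 and 188 units for untreated RNA in Cy5. At 1 h the log2 ratios of Slpi were 0.28 and 0.29, at 2 h they were 0.53 and 0.69, and after 4 h they reached 1.00 and 0.95. All 6 were positive, the 2 arrays of each time lay close together, and the times do not overlap. Slpi was 1.22-fold, 1.52-fold and 1.97-fold higher in treated cells, with a mean response of 0.62 ± 0.11 (adjusted p = 0.0132) and a slope of 0.35 ± 0.029 (adjusted p = 0.00726).

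The other Slpi probe, A_51_P135148, was well above background in 0 of 12 readings, so no fold is given for it. In the coordinates of the scanner files, of unstated genome build, it starts 5214 bases from the first probe. The whole RefSeq gene spans 2438 bases. The rise of Slpi therefore rests on 1 probe. Its mean call was lost without the 2 h sample (adjusted p = 0.0707), with processed signals (adjusted p = 0.0798) and under a trended robust variance (adjusted p = 0.152). Its slope call was lost without the arrays with treated RNA in Cy3 (adjusted p = 0.109).

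**Figure D2:**
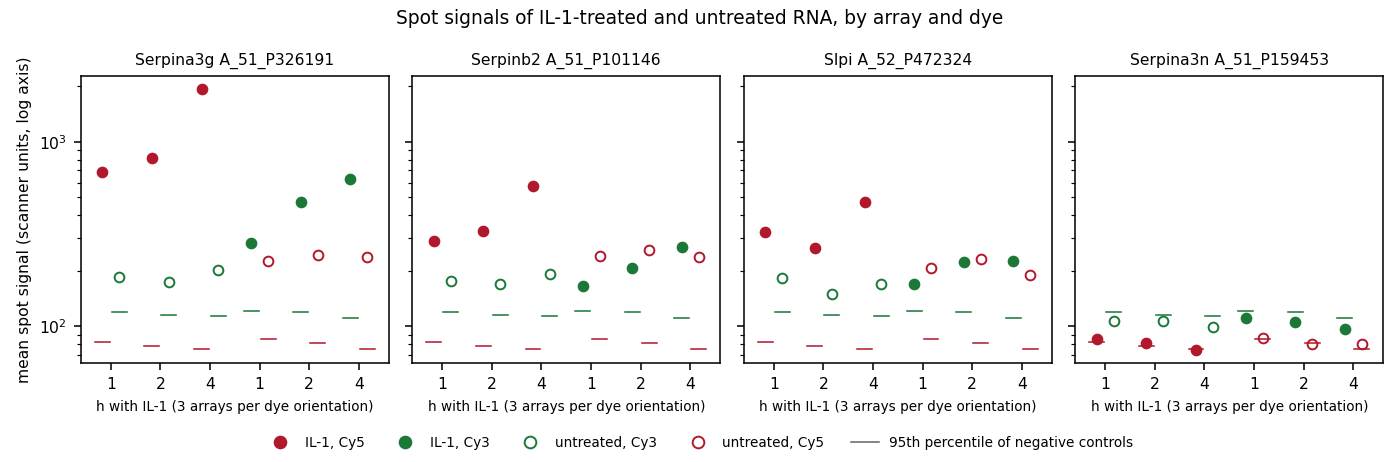
Mean spot signal in scanner units (log y axis) is plotted by h with IL-1 for Serpina3g, Serpinb2, Slpi and Serpina3n, with filled points for treated and open points for untreated RNA, red for Cy5 and green for Cy3, and short lines at the 95th percentile of the negative controls of the same dye and array. Serpina3g, Serpinb2 and Slpi lie above these lines in all 12 readings, while the Serpina3n readings lie on or near them.

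Serpine2, a secreted inhibitor of thrombin, urokinase and plasmin, did not pass either test. The gene lies on chromosome 1 from 79794317 to 79858665. Its probe A_51_P268094 had log2 ratios of -0.10 and 0.042 for 1 h, 0.022 and 0.047 for 2 h, then 0.14 and 0.16 for 4 h. The 4 h arrays lay above the others, but the mean response was 0.052 ± 0.037 (adjusted p = 0.381) and the slope 0.09 ± 0.029 (adjusted p = 0.337). The probe was dim: in Cy3 it gave 145 to 158 units for treated and 151 to 156 units for untreated RNA. The 95th percentile of the negative controls in Cy3 was 110.6 to 120.5 units. With the scanner's processed signals the 4 h log2 ratio was 0.27, so its size depends on the background correction.

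Serpinf1, a secreted protein known for blocking vessel growth, gave small positive ratios that did not change with time. The gene lies on chromosome 11 from 75410029 to 75422623. Its probe A_51_P517075 ranged from 0.044 to 0.16 over the 6 arrays, and its mean response of 0.12 ± 0.024 (adjusted p = 0.0188) was 1.08-fold. Its probe A_52_P35048 ranged from 0.096 to 0.25, with a mean response of 0.17 ± 0.023 (adjusted p = 0.00466). Both were positive on all 6 arrays, and both slopes missed the threshold (0.027 and -0.0004). With processed signals both mean calls were lost (adjusted p = 0.115 and 0.0539). The mean call of the first probe was also lost with an offset of 16 (adjusted p = 0.0681). The direction depends on the scaling: with each array centred on its median in place of loess, the first probe had a mean response of -0.071 (adjusted p = 0.125) and the second one of 0.021 (adjusted p = 0.667). Without the 2 h sample neither passed (adjusted p = 0.126 and 0.0518), and the first also missed the threshold without the 4 h sample (adjusted p = 0.0523) or the arrays with treated RNA in Cy3 (adjusted p = 0.0766).

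Serpinh1, which binds procollagen in the endoplasmic reticulum and is needed for collagen folding, was slightly lower. The gene lies on chromosome 7 from 99345375 to 99353239. Its probe A_51_P287069 had log2 ratios of -0.21 and 0.092 for 1 h, -0.25 and -0.0019 for 2 h, then -0.21 and -0.009 for 4 h. The values below -0.2 all came from arrays with treated RNA in Cy5, and 1 of the 6 arrays was positive. The mean response was -0.097 ± 0.025 (adjusted p = 0.0384), and without the arrays with treated RNA in Cy5 it was 0.027 (adjusted p = 0.589). The slope was -0.025 (adjusted p = 0.835). The call was also lost without the 1 h, 2 h or 4 h sample (adjusted p = 0.0501, 0.231 and 0.0913), with an offset of 16 (0.0778), in the processed signals (0.117) and with unaveraged arrays and no block (0.273). Under median centring the mean response of Serpinh1 was -0.284 (adjusted p = 0.000526).

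**Figure D3:**
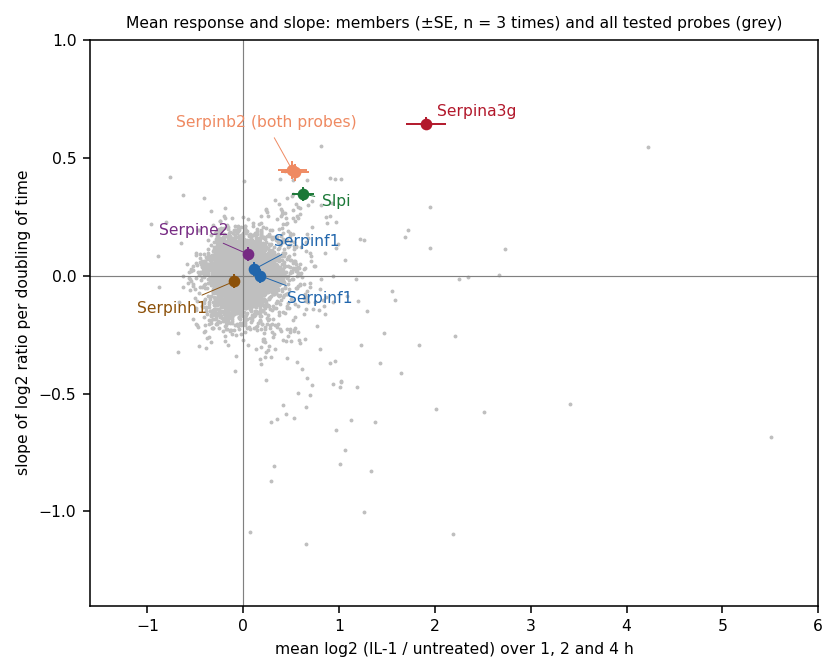
The mean log2 ratio over 1, 2 and 4 h (x axis) is plotted against the slope per doubling of time (y axis, log2 units). The 8 tested probes, which belong to 6 of the 7 genes, are in colour with SE bars over 3 times. All 30580 tested probes are in grey. Serpina3g, at a mean of 1.90 and a slope of 0.64, both Serpinb2 probes and Slpi lie above the main cloud, in which Serpine2, Serpinf1 and Serpinh1 are found.

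The 3 rising genes were set beside the genes with the closest time course, by the Euclidean distance between their log2 ratios at 1, 2 and 4 h over 13280 genes. Nearest to Serpina3g were the chemokine gene Cxcl3 (1.59, 2.07 and 2.17), Angptl4 (1.66, 2.32 and 1.89) and the chemokine gene Ccl7 (2.36, 2.32 and 2.34), at distances of 0.53, 0.88 and 1.19. Between 2 and 4 h the ratios of all 3 moved less than that of Serpina3g, a difference that was not tested. Nearest to Serpinb2 were H2-T10, a class I histocompatibility gene (0.14, 0.49 and 0.99), the eotaxin gene Ccl11 (0.11, 0.53 and 0.91) and Mmp3, the gene of stromelysin-1 (0.22, 0.41 and 0.91), at distances of 0.027, 0.12 and 0.14. Nearest to Slpi were Ttc39c (0.28, 0.62 and 1.10), the gelatinase gene Mmp9 (0.30, 0.52 and 0.88) and Prnd (0.41, 0.61 and 1.01), at distances of 0.12, 0.13 and 0.13. Likeness over 3 times is a description only.

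The ratios of other measured serpins mostly stayed near 0. Of the 46 on the array 29 were measured, and of these 3 were higher in the mean response, 0 were lower and 26 did not pass. Over all tested probes the shares were 10.5% higher and 11.4% lower. The median mean response of the 29 was 0.0039, against 0.0021 for all tested probes. Among these, Serpinb6a was higher by 0.15 (adjusted p = 0.00611) and the complement C1 inhibitor gene Serping1 by 0.098 (adjusted p = 0.0318). Under median centring the value of Serpinb6a was -0.00203. None of the 29 passed the slope test or the 2-fold rule. Many of them were dim. Serpinb1b, with an average log2 intensity over both dyes of 6.09, was well above background in 1 untreated and 3 treated readings. For dim probes a ratio near 0 does not show that the gene failed to respond.

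**Figure D4:**
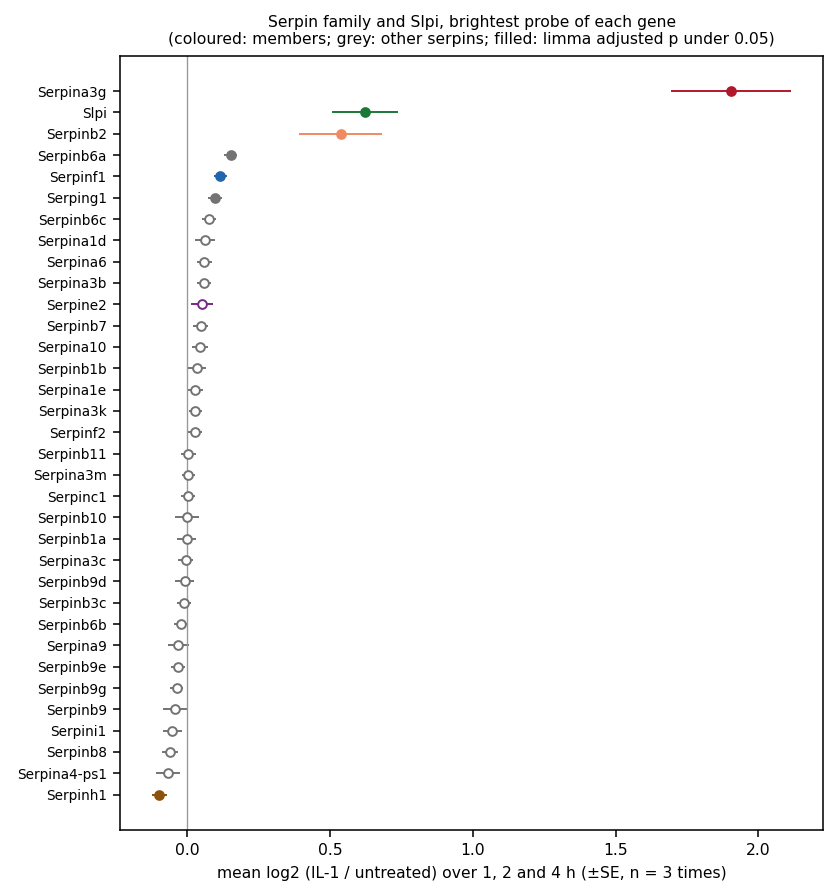
The mean log2 ratio of IL-1-treated over untreated RNA over 1, 2 and 4 h (x axis, with SE over 3 times) is drawn for the brightest probe of measured serpin genes and of Slpi, with the 6 measured genes of the group in colour, other serpins in grey, and filled points for limma adjusted p under 0.05. Serpina3g, Slpi and Serpinb2 lie to the right of the other genes drawn, most of which lie close to 0.

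Other serine protease inhibitors, of the Kunitz, Kazal and whey acidic protein families among others, gave 0 higher and 1 lower of 27 measured of 32, with a median of 0.0094. The lower one was Tfpi2, an inhibitor of plasmin and trypsin, at -0.18 ± 0.037 (adjusted p = 0.0165). The proteases and receptors that serpins and Slpi act on gave 5 higher and 2 lower of 33 measured of 39, with a median of 0.014. With median centring the same list gave 2 higher and 11 lower. Lrp1, the receptor that clears serpin-protease complexes, was higher by 0.31 ± 0.025 (adjusted p = 0.00119), and Plaur, the urokinase receptor, by 0.31 ± 0.048 (adjusted p = 0.00768). F7 and Htra2 were higher by 0.12 and 0.11, though Htra2 stood at -0.048 under median centring, and Masp1 and Prss23 were lower at -0.19 and -0.15. The urokinase gene Plau had ratios of 0.29 ± 0.32, -0.058 ± 0.12 and -0.19 ± 0.13 at 1, 2 and 4 h and passed neither test. At 1 h the array error was larger than the ratio.

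The collagens and folding enzymes that work with Serpinh1 gave 7 higher, 3 lower and 11 not passing of 21 measured, with a median of 0.067. The highest were P4hb and P4ha2, subunits of prolyl 4-hydroxylase, at 0.31 and 0.28, and the lysyl hydroxylases Plod3 and Plod1 at 0.24 and 0.20. The lowest were Col3a1, Fkbp7 and Plod2 at -0.25, -0.22 and -0.15. This list depends on the scaling: 7 were higher and 3 lower with loess, against 2 higher and 10 lower with median centring, which moves the median of all probes to -0.021. No gene of the 4 lists passed the slope test, and none passed the 2-fold rule at any time. In the mean response 21 of their 110 measured genes passed, 15 higher and 6 lower, while 10.5% of all tested probes were higher and 11.4% lower. These pooled shares are no result about the lists, and no list was tested as a set. Taken alone, the collagens and folding enzymes had 7 of 21 higher with loess, a larger share than over all tested probes. With median centring that count was 2.

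Slpi and Serpinb2 are also made by leukocytes and keratinocytes, so markers of other cells were read on the same arrays. Of 8 measured leukocyte markers 3 were higher, Cd14 by 0.17, Csf1r by 0.13 and Lyz2 by 0.086, and the pan-leukocyte marker Ptprc stood at -0.026 (adjusted p = 0.574). Of 2 neutrophil markers measured neither passed, and of 4 keratinocyte markers Krt10 was lower at -0.20. Among all tested probes 10.5% were higher and 11.4% lower. The markers of these other cells were read with loess only, and small mean responses of other genes turned sign under median centring. The flag for signal above background is permissive, since up to 14.3% of negative control spots carried it in Cy3. The flag alone therefore does not show that a marker is expressed. Lyz2 was bright, with an average log2 intensity over both dyes of 11.65. The other measured leukocyte markers lay between 6.39 (Ptprc) and 8.80 (Cd3e). The part of other cells in these results was not tested.

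Neighbours on the chromosome were read for each gene, 5 on either side. Around Serpina3g 4 of 10 were measured and 0 passed the mean test. Around Serpinb2 6 of 10 were measured, with mean responses between -0.061 and 0.047, and 0 passed. Around Slpi 5 were measured and 3 were higher: Sdc4, the gene of the proteoglycan syndecan-4, by 0.81 (adjusted p = 0.000467), Sys1 by 0.12 and Svs5 by 0.083. Over all tested probes 10.5% were higher and 11.4% lower. Sdc4 stood at 0.76, 0.94 and 0.73 at 1, 2 and 4 h, and apart from Serpina3g, a neighbour of Serpina3n, no measured neighbour of the 7 genes passed the slope test. Next to Serpine2, 8 were measured and Irs1 was lower at -0.81. Around Serpina3n, with Serpina3g left out, 3 of 7 measured were lower. Around Serpinf1 2 of 9 were higher, and around Serpinh1 2 of 8 were higher and 1 was lower. Neighbours were not tested as a set.

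The size of the 3 rises depended on the background correction and their direction did not. At 4 h the log2 ratio of Serpina3g was 2.55 as processed here (offset 50) and 2.81 with an offset of 16. It was 3.01, or 8.03-fold, in the scanner's own processed signals. Serpinb2 stood at 1.01, 1.18 and 1.31 under the same settings, and Slpi at 0.98, 1.18 and 1.38. Slopes of Serpina3g, Serpinb2 and Slpi were positive under every alternative, but the slope calls were lost with the offset of 16 (adjusted p from 0.249 to 0.387) and with processed signals (adjusted p = 0.533 for all 4 probes). With those 2 settings 0 of all tested probes passed the slope test in limma, although before adjustment 2795 and 2760 had a p under 0.05. With the offset of 50 that number was 3171.

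**Figure D5:**
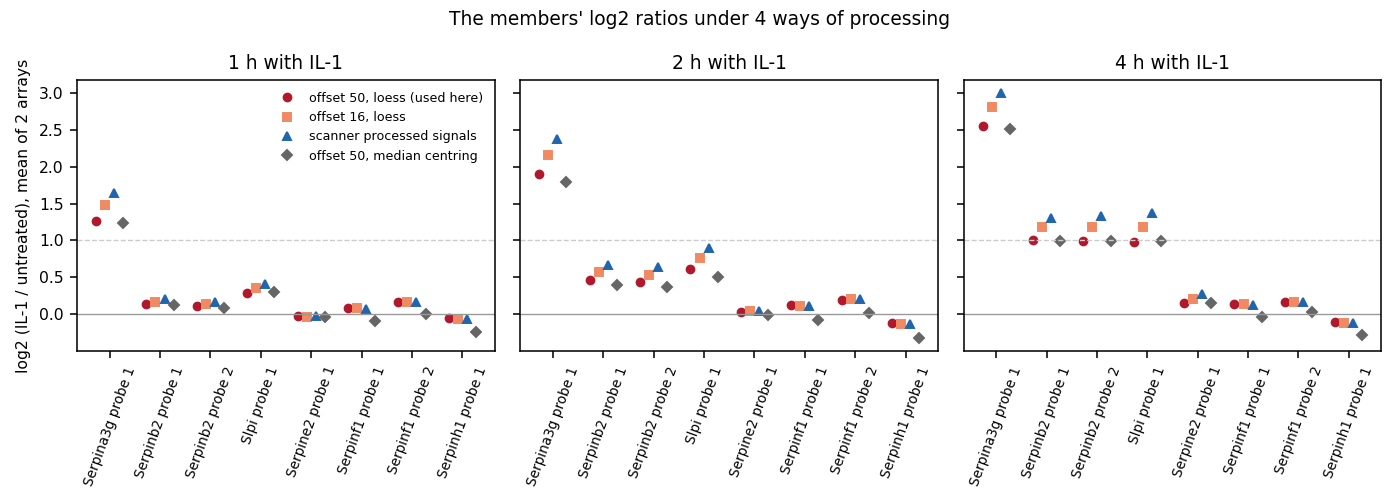
The log2 ratio of IL-1-treated over untreated RNA (y axis, mean of 2 arrays) is drawn for the 8 tested probes at 1, 2 and 4 h under 4 ways of processing the same arrays, with a dashed line at a 2-fold difference. Serpina3g, Serpinb2 and Slpi keep their place and lie highest with processed signals, while Serpinf1 and Serpinh1 move downward with median centring.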

How the data were processed

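The 7 genes and the gene lists were chosen with earlier results of these data known. Agilent Feature Extraction 7.5.1 read the spots, per the file headers. The deposited intensity columns used here are each spot's mean signal and local background, uncorrected. Per the file headers, the software's processed intensities have background subtracted with detrending and a linear plus lowess dye correction. In limma 3.58.1 (R 4.3.3), normexp with an offset of 50 corrected the mean signals, and loess within each array, with control spots at weight 0, normalized them. Controls and outlier flags were left out and saturated spots kept. Probes had to be well above background on all arrays of 1 or more of the 4 conditions (30637 of 41174 probes), and 57 of these lacked a value on some array.

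Ratios were turned to treated over untreated by the dyes in the labels, and each dye-swapped pair was averaged to 1 sample per time. Mean response and slope were tested against 0 with lmFit and eBayes, two-sided, with Benjamini-Hochberg adjustment over 30580 probes. At a single time there is 1 sample and no test. A size rule, 2-fold on both arrays, was used there. Untreated RNA is both control and reference, so the ratio leaves out the control's own spread. The slope is free of it only if all arrays held the same untreated extract, which no label states. Nothing states separate cultures, so p-values measure only the spread between these samples, which may be technical. In the mean response that spread also holds any change with time, so a rising gene can miss the mean test more easily than a flat one. The number of arrays limits the precision.

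The authors' deposited value table is on a log2 scale. Each of its columns equals the treated over untreated processed signal of the other array of its time point, for 100% of spots within 0.001, so its 2 columns per time are exchanged. Scale and centring are thereby settled. Medians of its columns were -0.026 and 0.0261 for 1 h, -0.0309 and 0.0311 for 2 h, then -0.0325 and 0.0283 for 4 h. Averages over a pair are unaffected. If the scanner files were the exchanged ones, every sign here would turn. In the labelled direction Cxcl1 and Nfkbia were higher after IL-1.

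Replicate numbers mark dye orientation per the labels. Same-numbered arrays deviated together from their time means, with correlations of 0.843, 0.768 and 0.765 across probes. Genes named are all probes of the 7 genes, up to 4 per direction of each list with the largest mean response past its test, those past the size rule or slope test, and the 3 nearest time courses of each rising gene. Markers, neighbours, paralogs, Plau, Ctsh, Crtap and Hspa5 were chosen after their values were seen. One gene of the lists counts in their totals and is otherwise not reported here. RefSeq names were found by accession for 22072 probes. The fits were tested on simulated data. Alternatives were another offset, processed signals, median centring, filters on dim probes, the brightest probe per gene, unaveraged arrays, another variance model, the value table, and leaving out 1 orientation or 1 time.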

Additional observations from a re-analysis of the deposited data

Results flagged for a closer look

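The log2 ratio differed between the time points, by the slope test over 1, 2 and 4 h, for 4 probes. The slope per doubling of time was 0.64 for Serpina3g, 0.44 and 0.45 for the 2 probes of Serpinb2, and 0.35 for Slpi. In each of these the 4 h ratio was above the 1 h ratio in both dye orientations. Each time point is 1 sample.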

How the results depend on the processing

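Slopes of Serpina3g (0.62 to 0.68), Serpinb2 and Slpi stayed positive under all alternatives that give a slope. With 6 arrays and the replicate block, here the dye orientation, 7 of the 8 probes passed the mean test and 4 the slope test, against 6 and 4. All-probe slope calls were 348 with the replicate block, 20 unaveraged without it and 134 here. Of the 8 probes the mean test passed 1 with processed signals, 1 with the value table, 3 with the offset of 16, 3 with trended robust variance and 1 without the 2 h sample. The slope test passed 0 with processed signals, the value table or the offset of 16, and 1 to 4 without 1 replicate. Over all probes 6688 mean calls became 1966 with processed signals, 1882 with the value table, 4350 unaveraged without the block, 1788 without the 2 h sample and 10445 to 11299 without 1 replicate. All-probe slope calls became 0 with processed signals (2760 unadjusted), the value table (2744 unadjusted) and the offset of 16 (2795 unadjusted), 490 with median centring, 83 with the brightest probe per gene, 677 with trended robust variance and 21 to 47 without 1 replicate. List genes past the mean test numbered 21, against 34 with the replicate block, 8 with processed signals, the value table or no 2 h sample, and 37 to 39 without 1 replicate. The 2-fold rule passed 4 probes at 4 h with processed signals, the value table or the offset of 16, and 1 to 4 without 1 replicate. At 1 h it passed 0 with median centring. The mean call of Serpina3g was lost with trended robust variance (adjusted p = 0.0915), and its adjusted p over all alternatives was 2.95e-05 to 0.0915. Mean responses turned sign under median centring for Serpinf1 (-0.071), Serpinb6a (-0.00203), Ctsh (-0.046), Htra2 (-0.048), Crtap (-0.050) and Hspa5 (-0.064). Serpinh1 ranged from -0.221 to 0.027 without 1 replicate, and its slope from -0.0505 to 0.000649. The slope of the second Serpinf1 probe, -0.0004, became 0.000727 with processed signals and with the value table, 0.013 with median centring and -0.012 to 0.011 without 1 replicate. The causes were not tested. A block for slide was not run, since each of the 6 arrays is on its own slide. Signal over background limits Serpina3n and the second Slpi probe.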
